A study of Mus musculus with 8 samples.

Results

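Heat shock proteins and their co-chaperones were examined in skeletal cells sorted from mouse fracture callus. Members were all genes whose array probe sets carried exactly 1 gene symbol and whose symbol begins with a family name of the chaperones (Hspa, Hspb, Hspd, Hspe, Hsph, Hsp90), of the heat shock factors (Hsf) or of the co-chaperones (Dnaj, Bag), followed by a digit or one of the letters a, b and c. This gave 81 of 18193 genes, with 188 of the 45037 probe sets that are not controls. Hsp90ab1 and Hsf1 had no probe set with 1 symbol in the platform annotation and were not analysed here. Hspbap1, Hsf2bp and Hspb11 match the pattern of names but are not chaperones, and stayed among the remaining members.

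The study arrayed 2 populations on Affymetrix mouse expression arrays, with 4 arrays of skeletal stem cells (SSCs) and 4 of bone, cartilage and stroma progenitors (BCSPs), which lie downstream of the SSC. Both came from femoral fracture callus of male C57/Bl6 mice aged 10 to 12 weeks, whose femurs were fractured through both cortices and pinned within the marrow canal. Both populations were sorted as CD51+ cells without CD45, Ter119, Tie2, Thy1 or 6C3, SSCs as those with CD200 and without CD105 and BCSPs as those with CD105, 10000 of each per experiment, directly into Trizol and without culture. The labels put the harvest at day 7, whereas the study's text gives a later day. Each of 4 experiments gave 1 array of either population. The calluses are described as coming from 4 different mice, though the labels do not tie a mouse to an experiment, and a test measures the spread between these samples. Neither unsorted callus nor cells of uninjured bone are among the 8 arrays, so no level from outside the sorted, fractured setting was compared. The value of a gene is an activity score in points, from about -100 (inactive) through 0 (the threshold of that probe set) to 100 (active), which places the probe set within its own range over a large public reference of mouse arrays. Scores of different genes therefore do not rank amounts of mRNA, and differences are given in points, not as folds. In bulk samples of this kind, a lower score from fewer expressing cells and one from less RNA per cell cannot be told apart.

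The sorted cells carried the marks of the skeletal lineage. Sox9, Col2a1, Acan, Sp7, Itgav and Cd200 scored above 0 on all 8 arrays, and Eng, which encodes CD105, lay between -64.4 and -29.4 in SSCs and between -1.02 and 50.1 in BCSPs. Runx2 was not measured. Ptprc, Tek, Thy1 and Enpep of the excluded cells scored below 0 on every array, as did the endothelial, muscle and germ cell markers examined. Of 5 blood markers, Cd14 and Lyz2 were below 0 throughout, whereas Laptm5 was above 0 on 3 arrays, Hba-a1 on 5 and Ighm on 1. The median score of an array lay between -34.2 and -24.8.

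Chaperones bind unfolded protein and release it, in cycles of ATP binding and hydrolysis in the Hsp70, Hsp90 and Hsp60 families. J-domain proteins (Dnaj) deliver substrates to Hsp70 and stimulate its ATPase, BAG proteins and Hsp110 proteins (Hsph1, Hspa4, Hspa4l) act as nucleotide exchange factors, and small heat shock proteins (Hspb) hold clients without ATP. Genes for cytosolic members such as Hspa1a are switched on by heat shock factor 1 at heat shock elements, whereas genes for chaperones of the endoplasmic reticulum (ER) such as Hspa5 respond to the unfolded protein response, and secretory cells such as chondrocytes and osteoblasts depend on the ER members to fold collagen and other matrix proteins.

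Promoter sequence, which the choice of members did not use, was read from RefSeq (GRCm38.p6) for 66 of the 81 members, in 84 windows that run from 250 bases before to 50 bases after a start site. Paired heat shock units (GAANNTTC or TTCNNGAA, each its own reverse complement) were searched, then a run of 3 alternating units (either pair followed, after any 2 bases, by the unit that begins it, on both strands, so that a match also holds both paired forms), and the ER stress element (CCAAT and CCACG separated by any 9 bases, on both strands). GAANNTTC was found in 17 of the 84 windows (20.2%), against 7.86% of all 32851 promoter windows of the same length, and TTCNNGAA in 10.7% against 8.52%. A run of 3 units was present in 6 windows (7.14%, against 0.603% of all), which belong to Dnajb6, Hspd1, Hspe1 and Hsph1. The windows of Dnajb6 overlap, as do those of Hsph1 and those of Hspd1 and Hspe1, so a run can be counted repeatedly. Counted by gene, GAANNTTC was found for 15 of 66 members (22.7%, against 9.04% of 27025 genes). A run was found for 4 members (6.06%, against 0.662%). The ER stress element was present in 3 windows (3.57%, against 0.119% of all), those of Hspa5, Hsp90b1 and Dnajc3. These are matches of letters and not sites shown to be bound. The windows below are those of inducible genes, of the mitochondrial gene with the longest run of units and of a pair of ER chaperones, with the matches in capitals.
Hspa1a promoter window, chr17:34972107-34972406, minus strand: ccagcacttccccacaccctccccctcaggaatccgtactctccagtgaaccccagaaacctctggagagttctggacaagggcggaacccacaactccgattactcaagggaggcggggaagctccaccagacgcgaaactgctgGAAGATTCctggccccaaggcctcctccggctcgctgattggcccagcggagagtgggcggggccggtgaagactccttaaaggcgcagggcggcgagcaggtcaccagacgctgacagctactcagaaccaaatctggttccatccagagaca
Hspa1b promoter window, chr17:34959189-34959488, minus strand: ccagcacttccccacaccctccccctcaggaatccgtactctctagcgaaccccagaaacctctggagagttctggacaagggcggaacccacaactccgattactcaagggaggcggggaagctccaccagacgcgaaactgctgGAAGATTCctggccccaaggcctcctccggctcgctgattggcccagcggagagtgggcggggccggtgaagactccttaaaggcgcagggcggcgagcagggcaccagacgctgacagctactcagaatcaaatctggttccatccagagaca
Hsph1 promoter window, chr5:149636287-149636586, minus strand: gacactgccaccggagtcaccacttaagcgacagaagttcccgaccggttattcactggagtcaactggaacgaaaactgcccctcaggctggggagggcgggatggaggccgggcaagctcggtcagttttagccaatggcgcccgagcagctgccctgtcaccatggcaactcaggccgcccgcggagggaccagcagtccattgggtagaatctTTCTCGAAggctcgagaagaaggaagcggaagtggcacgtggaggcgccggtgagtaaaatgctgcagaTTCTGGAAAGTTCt
Hspe1 promoter window, chr1:55087898-55088197, plus strand: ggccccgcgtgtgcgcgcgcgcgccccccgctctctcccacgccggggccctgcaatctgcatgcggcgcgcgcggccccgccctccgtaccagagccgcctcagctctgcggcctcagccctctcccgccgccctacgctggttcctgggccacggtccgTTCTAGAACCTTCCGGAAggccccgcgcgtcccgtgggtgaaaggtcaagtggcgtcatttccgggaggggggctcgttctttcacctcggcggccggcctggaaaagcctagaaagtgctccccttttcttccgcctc
Hspa5 promoter window, chr2:34771840-34772139, plus strand: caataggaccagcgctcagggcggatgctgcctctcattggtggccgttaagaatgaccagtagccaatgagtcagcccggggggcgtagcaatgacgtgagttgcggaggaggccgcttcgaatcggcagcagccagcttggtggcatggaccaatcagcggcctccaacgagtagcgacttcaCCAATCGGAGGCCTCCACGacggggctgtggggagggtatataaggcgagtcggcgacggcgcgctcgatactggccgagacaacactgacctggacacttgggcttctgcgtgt
Hsp90b1 promoter window, chr10:86705395-86705694, minus strand: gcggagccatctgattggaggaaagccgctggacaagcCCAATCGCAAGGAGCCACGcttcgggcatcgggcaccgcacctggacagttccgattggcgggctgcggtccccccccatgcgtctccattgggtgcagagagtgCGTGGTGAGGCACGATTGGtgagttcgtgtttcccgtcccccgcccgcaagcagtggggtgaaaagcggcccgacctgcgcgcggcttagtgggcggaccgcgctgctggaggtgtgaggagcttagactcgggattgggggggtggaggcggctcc
The windows of Hspa1a and Hspa1b were identical at 296 of 300 positions, and the single match in each began 104 bases before the start site. Hsph1 had matches that began 33 bases before the start and 36 and 41 bases after it, and Hspe1 had 3 that overlapped in 1 run from 89 bases before the start. That run is shared with Hspd1, which is read from the opposite strand, since one of the Hspd1 windows covers 285 bases of the window printed for Hspe1. The ER stress element began 65 bases before the start of Hspa5, and 212 and 107 bases before that of Hsp90b1. Neither of the windows of Dnajb1 held any of these motifs.

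The stress-inducible members Hspa1a, Hspa1b and Dnajb1 were active on every array of both populations, and Hsph1 on 6 of 8. Hspa1a and Hspa1b encode the inducible Hsp70 proteins and lie side by side (chr17:34969359-34972156 and chr17:34956429-34959238). Hspa1a scored 98.8, 89.2, 92.0 and 85.6 points in SSCs of experiments 1 to 4 and 98.8, 92.5, 93.5 and 87.6 points in BCSPs. Hspa1b scored 97.5, 89.6, 94.5 and 82.2 points in SSCs and 97.0, 91.4, 96.8 and 85.9 points in BCSPs. For both genes, both arrays of experiment 1 were the highest and those of experiment 4 the lowest, and the populations overlapped. The 2 genes are near-identical copies, and how far their probe sets tell them apart is uncertain. The other probe sets of Hspa1b ranged from 72.6 to 96.6 and from 75.7 to 95.7 points.

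Dnajb1 (chr8:83608175-83612653) encodes the Hsp40 partner of inducible Hsp70. It scored 98.0, 61.1, 78.9 and 83.8 points in SSCs and 98.0, 72.4, 84.0 and 91.0 points in BCSPs, so that experiment 1 was highest and experiment 2 lowest in both populations. Its second probe set gave 94.7, 45.6, 33.2 and 53.2 points in SSCs and 93.1, 55.5, 31.6 and 51.9 points in BCSPs. Experiment 1 was again highest there, but experiment 3 was lowest. Hsph1 (chr5:149616843-149636498), an Hsp110 exchange factor, scored 34.3, -6.48, 42.1 and -27.0 points in SSCs and 24.7, 2.40, 55.2 and 5.81 points in BCSPs. Its other probe set was below 0 on all 8 arrays, between -76.2 and -27.1 points, and the 2 Hsph1 probe sets thus lay on opposite sides of the threshold on 6 arrays. In all, 6 of the 8 probe sets of the inducible class were above 0 on all 8 arrays.

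**Figure D1:**
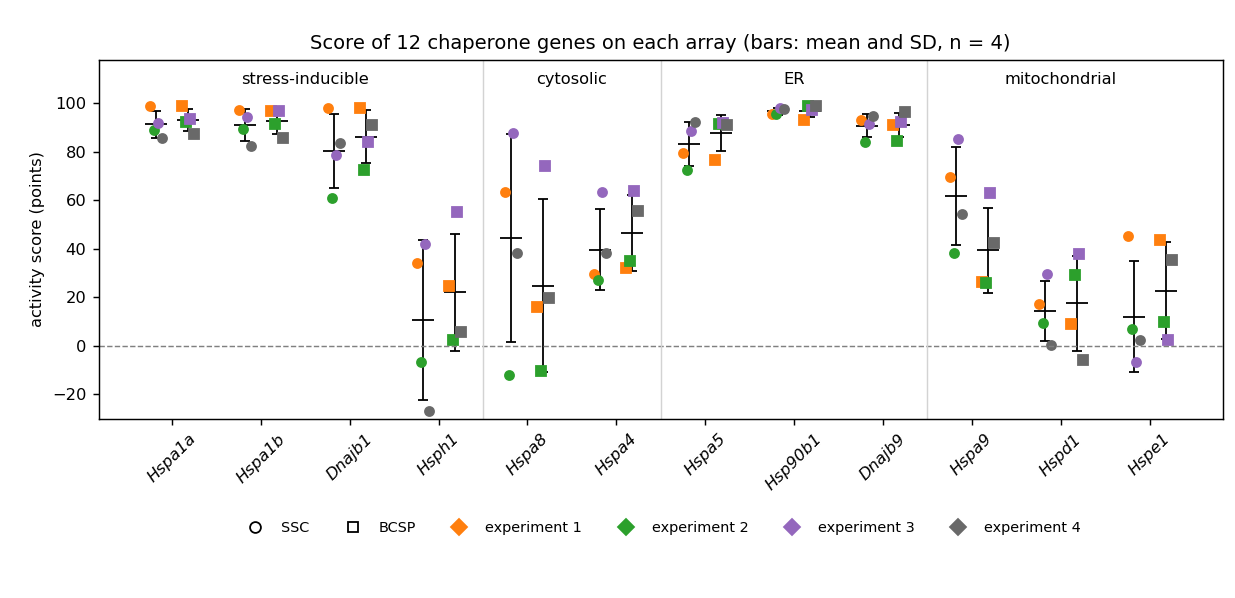
Activity score in points (vertical axis) of 12 chaperone genes (horizontal axis) on each array, circles for SSCs and squares for BCSPs, with colours for the 4 experiments and black bars for mean and SD (n = 4). Hspa1a and Hspa1b lie between 82.2 and 98.8 points and Hsp90b1 between 93.2 and 99.0 points on all arrays, whereas Hspa8 ranges from -12.0 to 88.0 points.

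Of the 81 members, 34 (42.0%) were active on all 8 arrays, against 25% of all genes, and 22 (27.2%) were below 0 on all 8, against 43.5%. The members had 2.32 probe sets each and all genes 1.92, and the count was taken on the probe set with the highest mean. When the probe sets of each gene were averaged, 18 members (22.2%) were active throughout, against 16.2% of all genes. Taken singly, 51 of the 188 probe sets (27.1%) were active, against 18.8% of all probe sets with 1 symbol, and 71 (37.8%) were below 0 on all 8 arrays, against 49.3%. Every probe set was active for 12 members (14.8%, against 10.2% of genes), namely Hspa1a, Hspa1b, Dnajb1, Hspa5, Hsp90b1, Dnajb9, Dnajc10, Dnajc25, Dnajb2, Bag1, Bag2 and Bag3, of which 7 have a single probe set.

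The classes of chaperones lay at different heights of the score, and on the probe set of highest mean the inducible class stood with the ER class. The median over the 4 inducible genes was 85.3 ± 9.37 points in SSCs (SD, n = 4) and 88.7 ± 6.53 points in BCSPs. The median over 12 ER genes was 85.8 ± 6.88 and 84.7 ± 7.11 points, that over 15 cytosolic constitutive genes 24.0 ± 19.1 and 28.3 ± 10.0 points, and that over 9 mitochondrial genes -2.36 ± 14.4 and 0.223 ± 12.7 points. For comparison, the median over all genes was -17.5 ± 5.76 points in SSCs and -16.0 ± 4.35 points in BCSPs. Within each array, the inducible median exceeded that of the constitutive, ER and mitochondrial genes pooled (36 genes) by 52.7 ± 9.33 points in SSCs and 52.1 ± 8.04 points in BCSPs, with a range of 44.9 to 64.5 points. It exceeded the cytosolic constitutive median by 47.4 to 81.6 points and the mitochondrial median by 77.0 to 107 points on the 8 arrays. Against the ER median the difference ran from -8.03 to 19.5 points and was above 0 on 3 arrays, 2 of them those of experiment 1. When the probe sets of each gene were averaged, the ER median was 51.0 points and the inducible median 79.0 points, so these classes no longer stood together. Since a score is set by each gene's own reference range, these differences describe where the classes stood within their ranges. The classes were set by list. Dnajb6 of the cytosolic constitutive class and Hspd1 and Hspe1 of the mitochondrial class also had runs of heat shock units. The contrast thus need not separate genes that respond to heat from those that do not.

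**Figure D2:**
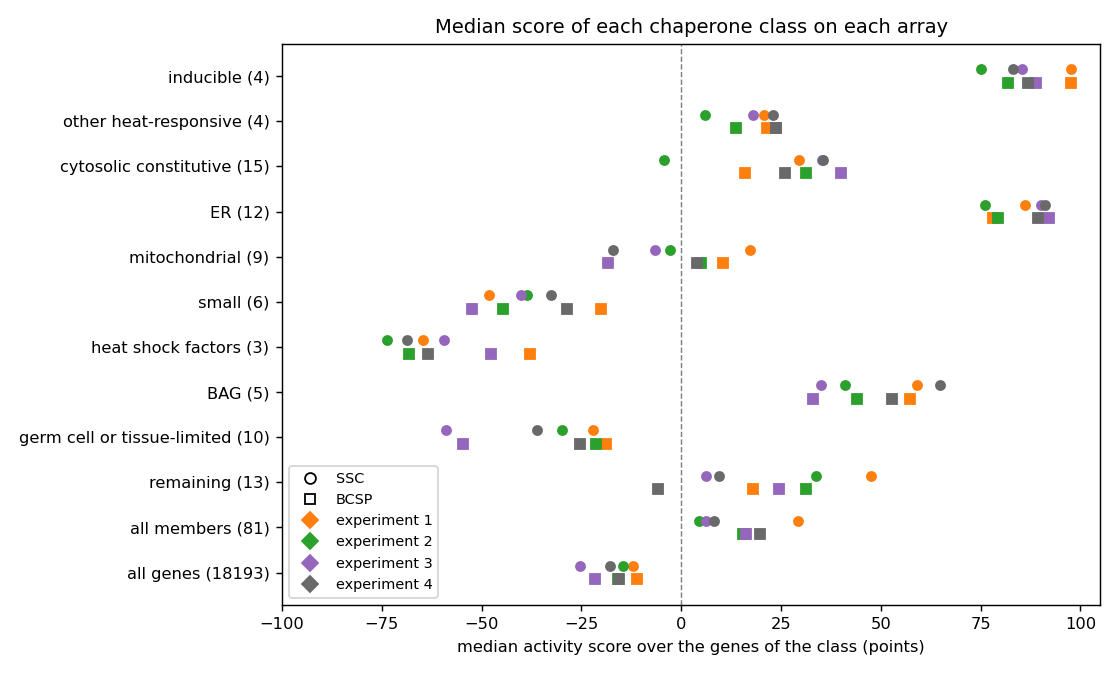
Median activity score in points (horizontal axis) over the genes of each chaperone class, with the number of genes in brackets, for each of the 8 arrays, circles for SSCs and squares for BCSPs, coloured by experiment. The inducible and ER classes lie between 75.1 and 97.7 points on every array, the heat shock factors between -73.7 and -37.9 points.

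Among the cytosolic constitutive members, 7 of 15 were active on all 8 arrays and 2 were below 0 on all. Hspa8, which encodes the constitutive Hsp70 of the cytosol, scored 63.6, -12.0, 88.0 and 38.5 points in SSCs and 15.9, -10.4, 74.4 and 19.6 points in BCSPs. Its arrays of experiment 3 were the highest and those of experiment 2 the lowest in either population. This is the order of its representative probe set, and not all of its other probe sets gave it. Hspa4, an Hsp110 exchange factor, was above 0 throughout, at 29.5, 27.0, 63.6 and 38.4 points in SSCs and 32.1, 34.9, 63.7 and 55.7 points in BCSPs. Dnajb4, a J-domain partner of Hsp70, had the highest mean of the class (41.5 to 87.6 points) and Dnajb5, a related protein, the lowest (-94.5 to -66.6 points). Of the other J-domain members, Dnaja1 was above 0 on 6 arrays, Dnaja2, Dnaja4, Dnajb2, Dnajb6 and Dnajc5 on all 8, and Dnajc9 on none.

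A further class of 4 members was listed as responding to heat beside the inducible class, and 3 of them were active on all 8 arrays. The list was not checked for completeness, and genes of other classes may respond to heat as well. Hsp90aa1, the inducible Hsp90 of the cytosol, scored 11.4, 3.48, 60.1 and 31.1 points in SSCs and 8.51, 11.8, 54.8 and 30.3 points in BCSPs, highest in experiment 3. Of its 5 probe sets, only this representative probe set was above 0 on all 8 arrays. On others, both arrays of experiment 1 were highest, at 32.0 and 40.2, 20.2 and 72.8, and -7.64 and 2.38 points (SSC and BCSP). Bag3, an exchange factor that works in selective autophagy, scored 76.6, 59.7, 31.9 and 66.8 points in SSCs and 78.1, 60.6, 46.3 and 47.8 points in BCSPs. Hspb1, a small heat shock protein, scored 29.9, 8.22, 3.96 and 14.8 points in SSCs and 34.4, 15.5, 1.21 and 17.3 points in BCSPs. Both arrays of experiment 1 were the highest and both of experiment 3 the lowest for Bag3 and Hspb1. Hspa4l was below 0 on all 8 arrays, between -78.3 and -17.2 points.

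Most ER members were active, with 10 of 12 above 0 on all 8 arrays and none below 0 on all. Hspa5 (chr2:34772090-34776529), the Hsp70 of the ER, scored 79.5, 72.7, 88.8 and 92.4 points in SSCs and 76.8, 91.4, 91.8 and 91.0 points in BCSPs. Hsp90b1 (chr10:86690841-86705444), the Hsp90 of the ER, scored 95.5, 95.7, 98.3 and 97.7 points in SSCs and 93.2, 99.0, 97.3 and 98.7 points in BCSPs. Both are active with each of their probe sets, the lowest of which reached 26.5 points for Hspa5 on 1 array. Dnajc1 had the highest mean of the class (95.0 to 98.5 points), and Dnajc25, Dnajb9 and Dnajc3 lay between 79.2 and 96.6 points. Hspa13, an Hsp70-like protein of the microsomes, ranged from 42.1 to 87.4 points. Dnajb11, a partner of Hspa5, scored -2.39, 4.55, 5.33 and 62.8 points in SSCs and -3.15, 52.0, 5.78 and 37.3 points in BCSPs. Dnajb12, an ER membrane protein, had the lowest mean (-91.4 to 50.5 points).

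Among the mitochondrial members, 1 of 9 was active on all 8 arrays, 1 was below 0 on all and 7 lay on both sides of the threshold. That gene was Hspa9, the mitochondrial Hsp70, which scored 69.5, 38.3, 85.2 and 54.3 points in SSCs and 26.4, 25.8, 63.0 and 42.4 points in BCSPs. Hspd1 and Hspe1, which encode Hsp60 and its Hsp10 lid and share the promoter region printed above, were above 0 on 7 arrays each. Hspd1 scored 17.2, 9.58, 29.6 and 0.35 points in SSCs and 9.17, 29.1, 37.7 and -5.79 points in BCSPs. Hspe1 scored 45.3, 6.82, -6.54 and 2.32 points in SSCs and 43.8, 9.84, 2.32 and 35.3 points in BCSPs. The 2 genes did not follow the same order of arrays, since Hspe1 was highest in experiment 1 and Hspd1 in experiment 3. Dnajc28 was below 0 throughout and had the lowest mean (-89.1 to -44.6 points).

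Of the 6 other small heat shock proteins, 5 were below 0 on all 8 arrays, among them Hspb2, Hspb3, Hspb6 and Hspb7, which are known from muscle. Hspb8, the partner of Bag3, was the exception at 74.0, 78.5, 68.9 and 70.6 points in SSCs and 80.9, 46.6, 40.3 and 75.2 points in BCSPs. The heat shock factors Hsf2, Hsf4 and Hsf5 were below 0 on all 8 arrays, Hsf2 between -66.2 and -22.5 points. Of 5 BAG members, 4 were active throughout, with Bag5 highest (57.3 to 91.2 points), and Bag6 was below 0 throughout (-95.8 to -70.9 points). Among 10 members known from germ cells or other tissues, 7 were below 0 on all 8 arrays, whereas Hspa12a scored 5.15 to 87.5 points on its representative probe set. Hspb11, a part of the intraflagellar transport machinery despite its name, scored 98.5 to 99.4 points. Dnajc27, a J-domain protein fused to a Rab GTPase, had the lowest mean of the members not placed in a class (-68.3 to -45.3 points).

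The state of a member was reversed between probe sets for 16 of the 50 members that have more than 1. In each of these 16, at least 1 probe set was above 0 on all 8 arrays and another was below 0 on all 8. The share among all genes with more than 1 probe set was not counted. The 16 are therefore not read as a trait of chaperone genes. They were Dnaja2, Dnaja4, Dnajb4, Dnajb6, Dnajc5 and Hspa4 of the cytosolic class, Dnajc3, Dnajc16 and Hspa13 of the ER class, and Hspa9, Hspa12a, Hspb8, Hspb11, Bag4, Dnajc17 and Dnajc21. For Hspb11, the second probe set lay between -93.5 and -16.2 points. Other members disagreed in part. Outside these 16, Hsph1, Hspa8 and Dnaja1 were above 0 on 6 arrays, and each also had a probe set below 0 on all 8. The mean of probe sets took the median of the cytosolic constitutive class to -4.32 points. Of the 188 probe sets, 28 have names ending in _s_at or _x_at, which mark probes that can bind related transcripts, among them those that represent Hspa8, Hspb1 and Hspb8. The part of cross-binding and of probe position in these disagreements was not tested.

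**Figure D3:**
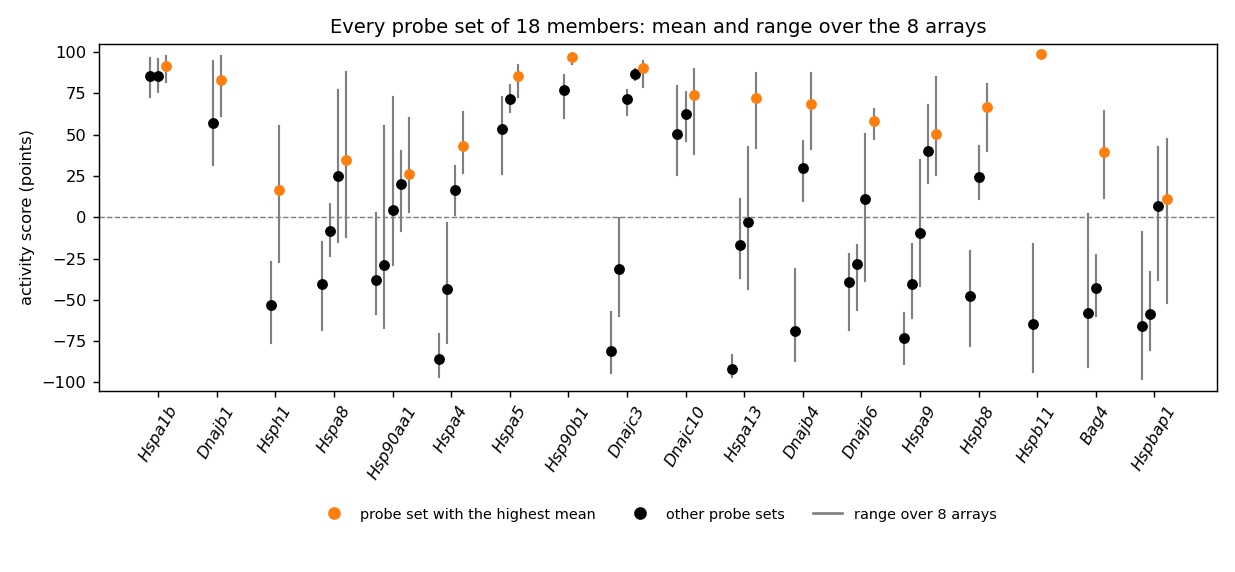
Mean (points) and range (grey lines) of the activity score over the 8 arrays for every probe set of 18 members, with the probe set that represents the gene in orange and the others in black (vertical axis in points). All probe sets of Hspa1b, Dnajb1, Hspa5 and Hsp90b1 lie above 0, whereas Hsph1, Hspa4, Dnajc3, Hspa13 and Hspb11 have probe sets on both sides.

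SSCs and BCSPs were compared to ask whether chaperone genes differ between the stem cell and its progeny. With limma and Benjamini-Hochberg adjustment, 0 of the 81 members and 0 of all 18193 genes passed in either direction (0% called), and 465 genes (2.56%) and 3 members (3.70%) had an unadjusted p under 0.05. The unpaired test of the study's methods passed 440 genes and 3 members before adjustment and 0 after it. With the experiment as a block, which pairs the arrays, 949 genes (5.22%) and 7 members (8.64%) had an unadjusted p under 0.05, and again 0 were called. The 3 members found without the block were Hspbap1, Dnajc11 and Hspa12a. Dnajb1, Dnajb7, Hspa1l and Hspa9 joined them with it, of which Dnajb7 and Hspa1l scored below 0 on every array.

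Hspbap1, which encodes a binding partner of Hspb1, scored 47.6, 37.1, 44.9 and 29.6 points in SSCs and -52.0, -16.8, 12.4 and -13.7 points in BCSPs. It was the only member whose groups did not overlap, and such a separation with SSCs above was found for 0.544% of all genes and with BCSPs above for 0.797%. SSCs were higher by 57.3 points (95% confidence interval 23.2 to 91.4), in 4 of 4 experiments, with an adjusted p of 1 from limma. On the other 3 probe sets of Hspbap1 the populations overlapped. Dnajc11, a mitochondrial J-domain protein, was lower in SSCs by 58.1 points (interval of the difference, SSC minus BCSP, -103 to -13.5), and its BCSP arrays ranged from -45.8 to 37.4 points. Hspa12a, an Hsp70-like protein, had an SSC minus BCSP difference of -36.9 points (-66.7 to -7.18). Averaged over all probe sets of the gene, the differences were 11.0 points for Hspbap1, -17.4 points for Dnajc11 and -4.67 points for Hspa12a. Hsf4 followed at -24.3 points (-49.0 to 0.427) and Hspa9 at 22.5 points (-5.18 to 50.1), higher in SSCs in 4 of 4 experiments. With the block, the interval of Hspa9 was 6.18 to 38.7 points (limma adjusted p = 0.928), averaged over its probe sets its difference was 11.2 points, and its second probe set had means of 38.6 points in SSCs and 41.1 points in BCSPs.

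For the inducible genes, the SSC minus BCSP difference was -1.69 points for Hspa1a (95% confidence interval -9.14 to 5.76), -1.83 points for Hspa1b (-10.4 to 6.72), -5.89 points for Dnajb1 (-24.0 to 12.2) and -11.3 points for Hsph1 (-55.3 to 32.6). Adjusted p-values from limma were 1 for each. These intervals are from the fit without the block. With the block they were narrower, at -4.39 to 1.01 points for Hspa1a, -4.72 to 1.06 for Hspa1b and -35.8 to 13.2 for Hsph1. Dnajb1 was lower in SSCs in 3 of 4 experiments and equal in experiment 1, and its interval with the block was -11.3 to -0.484 points (limma adjusted p = 0.928). Without the block, the narrowest intervals among ER members were those of Dnajc1 (-3.86 to 2.10 points), Dnajc25 (-3.30 to 3.45) and Hsp90b1 (-4.12 to 3.63). A score close to 100 leaves little room for a difference, so these intervals hold on the scale of the score only.

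**Figure D4:**
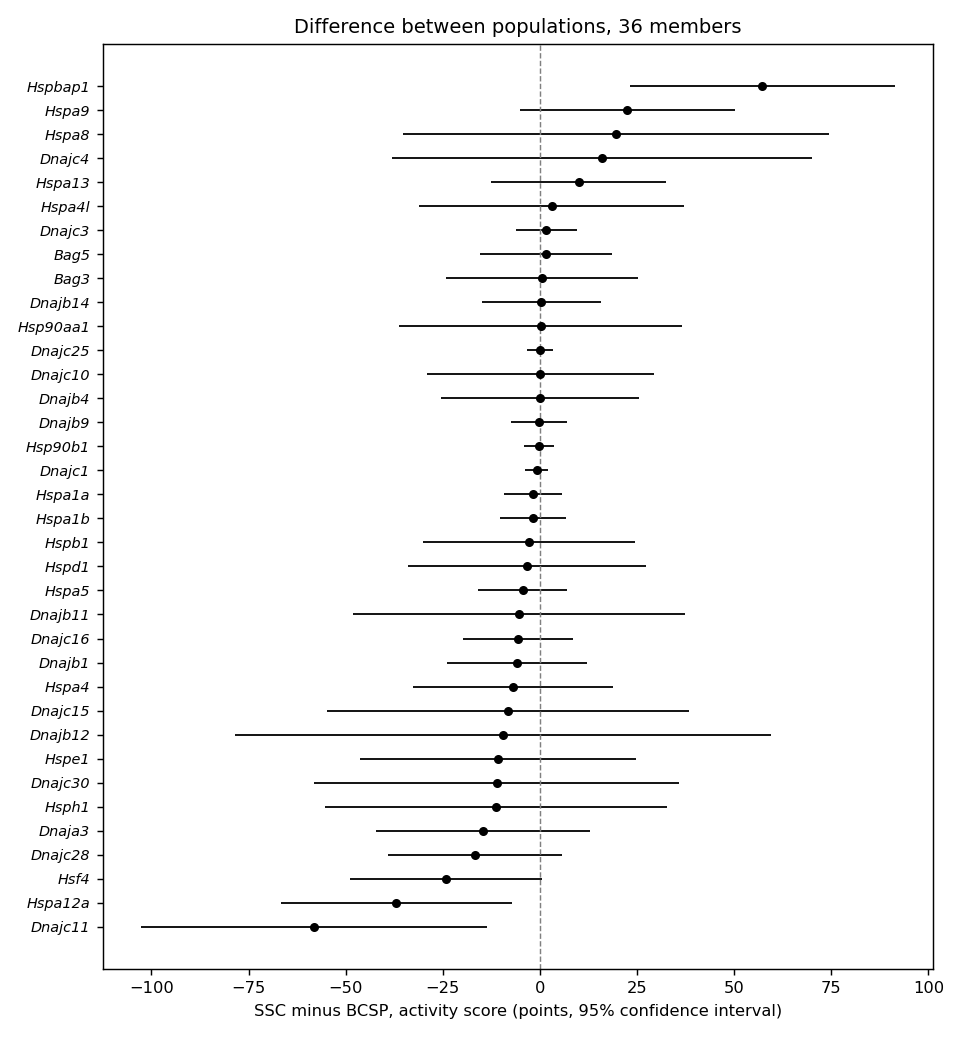
SSC minus BCSP difference in activity score (points, horizontal axis) with its 95% confidence interval from limma without the block for 36 members, ordered by the difference. The intervals of Hspbap1, Hspa12a and Dnajc11 exclude 0 before adjustment and none of the 36 passes after it.

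Members were also compared among the 4 experiments, each of which holds both populations. In a limma fit of population and experiment, the F test over experiments called 250 genes (1.37%) and 3 members (3.70%) after adjustment, and 27 members (33.3%) had an unadjusted p under 0.05, against 26.7% of all genes. Dnajb4 had means of 70.6, 42.8, 86.7 and 73.5 points in experiments 1 to 4 (adjusted p = 0.0414). Dnajc10, an ER disulfide reductase, had means of 43.7, 74.8, 88.6 and 88.8 points (adjusted p = 0.0460), and Dnajb1 had means of 98.0, 66.7, 81.4 and 87.4 points (adjusted p = 0.0460). Hspa1b (adjusted p = 0.0547) and Hspa1a (0.0623) did not pass. Calls were lost over the whole table, and not for the members alone, when arrays were left out. Without any 1 array 0 members and 0 to 6 of all genes passed, and without both arrays of any 1 experiment, or without the trend in eBayes, 0 of either passed. Other probe sets did not always follow the order of the first. The second of Dnajb4 gave 40.9, 32.2, 42.3 and 13.7 points in SSCs and 9.69, 29.5, 23.2 and 45.9 points in BCSPs. For Dnajc10, a second probe set gave 60.9, 50.8, 53.0 and 76.0 points in SSCs and 65.1, 73.5, 46.3 and 72.8 points in BCSPs, and on the third both arrays of experiment 1 were the lowest.

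Counts of members by experiment were made after their values had been seen. Both arrays of experiment 1 exceeded the other 6 for 14 members (17.3%), against 13.0% of all genes. These were Hspa1a, Hspa1b, Dnajb1, Bag3, Hspb1, Hspe1, Bag4, Bag6, Dnajb8, Dnajb12, Dnajc15, Dnajc24, Dnajc30 and Hsf5. All 3 probe sets of Hspa1b, both of Dnajb1 and both of Hspb1 gave that order. The second of Hspe1 did not, with 30.1 points on the SSC array of experiment 1 and 32.9 points on the BCSP array of experiment 4. Not every probe set of Bag4, Dnajb12 and Dnajc24 gave that order either. Of these 14, Dnajb12 is an ER member, and Bag6 and Hsf5 were below 0 on all 8 arrays. Both arrays of experiment 1 were under the other 6 for 5 members (6.17%, against 8.89% of genes), 3 of them ER members, namely Hsp90b1, Dnajb11 and Dnajc10, though the second probe set of Hsp90b1 and 1 of 3 of Dnajc10 did not place experiment 1 lowest. In experiment 3, both arrays exceeded the others for 12 members (14.8%, against 8.49% of genes), which were Hspa8, Hspa4, Hsp90aa1, Hsph1, Hspd1, Dnaja1, Dnaja2, Dnajb4, Dnajb14, Dnajc3, Dnajc13 and Dnajc25. For Hsp90aa1, only the representative of its 5 probe sets gave that order. Not every probe set of Hspa8, Hspa4, Hsph1, Dnaja2, Dnajb4, Dnajb14 and Dnajc3 gave it either, whereas all those of Dnaja1 and Dnajc13 did. Both arrays of experiment 3 were under the others for 12 members (14.8%, against 16.1%), among them Bag1, Bag3 and Hspb1. In experiment 2, both exceeded the others for 2 members (2.47%, against 4.09%), Dnajc27 and Hsf2, and were under them for 7 members (8.64%, against 3.91%), among them Hspa8, Dnajb1, Dnajb4 and Dnajb9. In experiment 4, both exceeded the others for 7 members (8.64%, against 5.76%) and were under them for 6 (7.41%, against 3.67%), the latter including Hspa1a and Hspa1b.

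Control probe sets moved with the experiment as well. The median score of 18 hybridization control probe sets, which read RNA added at the same step to every array, reached 68.3 points (SSC) and 72.0 points (BCSP) in experiment 1 and 32.8 and 42.0 points in experiment 3, but lay between -25.4 and 8.24 points in experiments 2 and 4. The actin score at the 3' end exceeded that at the 5' end by 59.6 and 64.9 points in experiment 3 and by 23.1 to 44.2 points elsewhere. For Gapdh that difference did not set experiment 3 apart, at 54.7 and 49.1 points there and 53.9 and 71.9 points in experiment 4. The part of these in the differences among experiments was not tested.

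**Figure D5:**
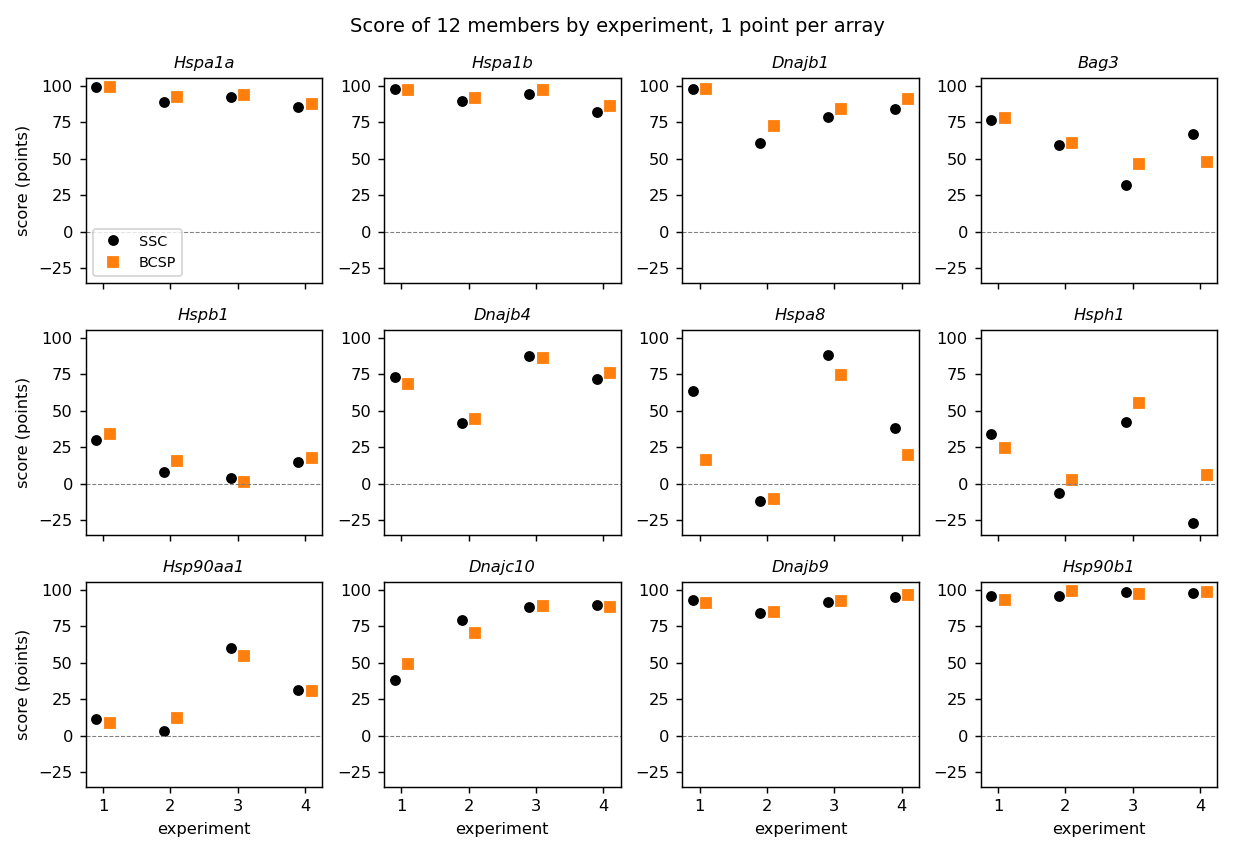
Activity score in points (vertical axis) of 12 members in experiments 1 to 4 (horizontal axis), 1 point per array, black circles for SSCs and orange squares for BCSPs. Each member is shown by its representative probe set. Hspa1a, Hspa1b, Dnajb1, Bag3 and Hspb1 are highest in experiment 1 on both arrays, Hspa8, Hsph1, Hsp90aa1 and Dnajb4 in experiment 3, and Dnajc10 is lowest in experiment 1 (38.5 and 48.8 points).

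Of 46 other genes of protein folding outside the families, 43 were measured, and 19 of these (44.2%) were active on all 8 arrays, against 25% of all genes. This count rests on the probe set with the highest mean, and counts by other probe sets were not made for this list. None of the 43 genes passed between populations, and 0 had an unadjusted p under 0.05, against 2.56% of all genes. Among 9 ER folding genes, 6 were active throughout, with P4hb, a protein disulfide isomerase that is also a subunit of prolyl 4-hydroxylase, at 97.3 to 99.95 points and the lectin chaperone Canx at 80.5 to 97.8 points. Serpinh1, the collagen chaperone Hsp47, scored 97.4 to 99.9 points. Hyou1 and Sdf2l1, also of the ER, were below 0 on all 8 arrays. Of the 8 subunits of the cytosolic chaperonin TRiC, which folds actin and tubulin, 7 were active throughout. Of 5 prefoldin subunits, 1 was active throughout, a share near the 25% of all genes. Of 10 measured co-chaperones of Hsp70 and Hsp90, 2 were active throughout, St13 (13.8 to 53.1 points) and Chordc1 (25.9 to 81.5 points). The share of these co-chaperones also lay near the 25% of all genes. Chordc1 was the 1 gene of the list called among experiments (limma adjusted p = 0.0418, against 1.37% of all genes called). Stip1, which links Hsp70 to Hsp90, and Hmox1, a heme oxygenase that responds to stress, were below 0 on all 8 arrays.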

How the data were processed

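The 8 arrays held 4 samples of SSCs and 4 of BCSPs. RNA of sorted cells was amplified in successive rounds by the authors, hybridized to Affymetrix arrays and scored with Gene Expression Commons, where public mouse arrays serve as the Common Reference and StepMiner sets each threshold. The authors deposited this score for 45101 probe sets, from -100.03 to 100. The summary of probes into probe sets is not stated in what was read here. Of the probe sets, 64 are controls and were left out, 34945 have 1 gene symbol in the platform annotation (which can be old), 932 have several and 9160 are not listed there and stayed unnamed. RefSeq identifiers changed 0 symbols. The probe set of highest mean over the 8 arrays stood for its gene. The number of arrays limits the precision.

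Populations were compared in R 4.3.3 with limma 3.58.1, using eBayes with a trend and no block, and experiments with its F test beside population, both over all 18193 genes with Benjamini-Hochberg adjustment at 0.05. Active means a score above 0. The fits were tested on simulated scores. The BCSP array of experiment 2 is numbered 3 in its title and 2 in its description, and was taken as 2. The labels give each experiment 1 array of either population, and the experiment was taken to pair the arrays, as a block in an alternative fit. Across genes, the deviations from the group mean of 2 arrays with the same number correlated at 0.399, 0.177, 0.572 and 0.183. Since the deviations are centred within each group, a positive value alone does not show pairing. Each array did correlate most with that of its own experiment among the arrays of the other population.

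The members, lists and tests were chosen with earlier results of these data known. Members named are the inducible genes, main chaperones of each compartment, the highest and lowest of each class, the 5 with the smallest p in either test and those whose probe sets disagree, and others are named as examples. Alternatives were the block, eBayes without trend, the methods' t-test, a filter on low scores, an inverse normal scale, quantile normalization, centring, the mean of probe sets, every probe set, and leaving out each array. Leaving out both arrays of an experiment, and counting genes by every probe set, were added after seeing the data.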

Additional observations from a re-analysis of the deposited data

Results flagged for a closer look

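In groups of 4 arrays, the highest or lowest value was tested for its distance from the other 3 for 90 combinations of a named member and a population (Dixon's test), and 7 stood apart. Chance sets about 1 in 20 such groups apart. On the BCSP array of experiment 1, Hspa5 scored 76.84 points, against 91.0 to 91.8 on the other BCSP arrays, and Hspa4l scored -78.28 points, against -25.4 to -17.2. On the BCSP array of experiment 2, Hspb11 scored 98.53 points, against 99.3 to 99.4, and Dnajc27 scored -45.29 points, against -65.3 to -64.4. On the SSC array of experiment 1, Dnaja4 scored 49.41 points, against 33.1 to 35.6 on the other SSC arrays, and Dnajb6 scored 65.78 points, against 55.3 to 57.1. Dnajb6 also stood apart on the BCSP array of experiment 4, at 47.47 points against 60.2 to 62.2.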

How the results depend on the processing

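Between populations, 0 members and 0 genes were called under each of the 21 alternatives, including the fit with the experiment as a replicate block (0 called), so the block changed no call. Among experiments, 3 members and 250 genes were called. These became 0 and 0 without the trend, 6 and 740 on the inverse normal scale, 5 and 597 after quantile normalization, 2 and 422 after centring, and 1 and 131 with the mean of probe sets. By single probe sets, 4 of 188 and 448 of 45037 were called. Without 1 array, 0 to 0 members and 0 to 6 genes were called, and 0 of either without both arrays of experiment 1, 2, 3 or 4, each fitted on fewer samples. The 34 members active on all 8 arrays became 18 with the mean of probe sets and 12 where every probe set had to be active. With the mean of probe sets, class medians were 79.0 points (inducible), 5.27 (other heat-responsive), -4.32 (cytosolic constitutive), 51.0 (ER), 26.2 (BAG) and -11.5 (remaining), and the inducible median exceeded the constitutive, ER and mitochondrial genes by 75.2 points. With means over members in place of medians it exceeded them by 40.2 points. The SSC minus BCSP differences of inducible genes were not called and changed sign on leaving out 1 array. Over those fits they ran from -4.16 to 0.245 points for Hspa1a (above 0 without SSC array 4, and 0.212 without BCSP array 1), from -4.12 to 1.07 for Hspa1b (above 0 without SSC array 4), from -11.7 to 0.567 for Dnajb1 (SSC array 2) and from -21.8 to 1.28 for Hsph1 (SSC array 4). Hsph1 was also at 0.126 points with the mean of probe sets. Leaving out both arrays of any 1 experiment kept each difference below 0. They then ran from -2.25 to -1.16 points for Hspa1a and from -2.58 to -1.22 points for Hspa1b. For Dnajb1 they ran from -7.86 to -4.08 points and for Hsph1 from -18.3 to -4.13 points. The cause of the changes of sign was not tested.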
